A study of Mus musculus with 2 samples.

Results

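Imprinted genes are expressed mainly from 1 parental copy, and 9 of them were examined in the embryonic cortex. Their classes are general ones that can depend on the tissue, and which copy was in use in this cortex was not measured. Nnat, Peg3, Mest, Igf2, Dlk1 and Ndn are classed as paternally expressed, and H19, Cdkn1c and Igf2r as maternally expressed. They were taken from the deposited table as every probe set that the platform annotation assigns to 1 gene symbol only and that symbol is a member. This gave 12 probe sets for 8 genes, out of 12488 probe sets and 8251 named genes in all. The single H19 probe set carries a second symbol and therefore gave no value. The members were chosen with measured values of these arrays in view, so their values below are a description and not a test.

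Cerebral cortex was taken from NMRI mouse embryos of stage E14.5 and compared on 1 wild type and 1 Pax6-/- array to find genes that act downstream of the transcription factor Pax6. No transgene, Cre driver or treatment is given for either group, and the labels do not name the Pax6 allele. The design text speaks of 3 embryos of each genotype; whether RNA was pooled is not given in the sources used here. With 1 array per genotype no difference has a replicate check, and the number of arrays limits the precision.

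Imprinting is set in the germ line by DNA methylation at control regions, and in the offspring 1 parental copy of the genes nearby is silenced. Many imprinted genes act on growth and on developing brain, and paternally expressed genes often favour growth while maternally expressed ones often restrain it. Imprinted genes lie in clusters, so a paternally and a maternally expressed gene can share 1 control region, as Igf2 with H19 and Dlk1 with Meg3 do. An expression array measures the RNA of both copies together and does not read which copy made it.

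The 250 bases upstream of the start are shown for the member with the highest log2 ratio between the arrays (Nnat), the member with the lowest (Igf2r), and Ndn, which holds the same 8 letters as Nnat but lay on the other side. The sequences are RefSeq's, build GRCm38.p6, 5′ to 3′ on the gene's strand, and capitals mark GCATGCGC or its reverse complement GCGCATGC, a word looked for after the sequences were seen.
Nnat, chr2:157559828-157560077, plus strand: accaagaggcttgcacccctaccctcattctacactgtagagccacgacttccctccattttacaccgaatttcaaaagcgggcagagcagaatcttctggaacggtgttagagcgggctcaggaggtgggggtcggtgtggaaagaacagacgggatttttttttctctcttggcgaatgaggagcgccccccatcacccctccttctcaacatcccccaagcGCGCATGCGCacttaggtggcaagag
Ndn, chr7:62348027-62348276, plus strand: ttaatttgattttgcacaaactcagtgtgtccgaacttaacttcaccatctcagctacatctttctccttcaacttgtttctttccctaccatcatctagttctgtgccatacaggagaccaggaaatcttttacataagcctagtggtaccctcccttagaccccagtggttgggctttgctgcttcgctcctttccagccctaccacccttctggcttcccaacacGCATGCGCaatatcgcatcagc
Igf2r, chr17:12769707-12769956, minus strand: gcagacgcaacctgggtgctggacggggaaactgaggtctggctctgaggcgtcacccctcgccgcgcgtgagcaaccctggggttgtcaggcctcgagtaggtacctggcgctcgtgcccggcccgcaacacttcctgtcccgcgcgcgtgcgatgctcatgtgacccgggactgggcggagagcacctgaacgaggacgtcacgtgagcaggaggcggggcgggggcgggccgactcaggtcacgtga
In the Nnat window the forward and reverse words overlap, which gave 2 matches. The Ndn window held 1 match. No other of the 12 windows listed for 7 members held the word; of all 32851 windows of this length, 2.26% held it on either strand. The CpG dinucleotide, the site of DNA methylation, occurred 12 times upstream of Nnat, 5 times upstream of Ndn and 27 times upstream of Igf2r, against a median of 6 over all windows. The 4 start sites listed for Igf2 had 1, 10, 22 and 6 CpG, so the windows of a single gene differed widely. GGGCGG, searched on both strands, was found 3 times upstream of Igf2r and 0 times upstream of Nnat, and 32.74% of all windows held it. TATAAA was in none of the 12 member windows and in 12.37% of all windows. The arrays do not measure methylation or binding, and these matches describe letters only.

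Values are MAS5 signals, the Affymetrix summary of a probe set, on a linear scale. A log2 ratio is mutant over wild type after a pseudocount of 81.5 was added to each signal and the median over probe sets above a signal filter of about 166 was set to 0; it understates differences of dim genes. A technical spread, the SD between probe sets of 1 gene, stood at 0.72 for dim genes (below a signal of about 471). It was 0.54 for the middle class and 0.38 for bright genes (above about 828). It compares probe sets on the same 2 arrays, so it contains no variation between embryos, RNA preparations or hybridisations. Pax6 itself read 1169 on the wild type and 447 on the mutant array; where the mutation lies relative to its probe set was not examined, so this is no check of the labels. Of 8 cortical markers 4 had a probe set. All 4 passed the filter and were lower on the mutant array, 3 of them at least 2-fold. Their summed signals were 12059 (wild type) and 3920 (mutant). Signals, wild type first, were 5088 and 2405 for Tbr1, 3489 and 877 for Neurog2, 2535 and 167 for Eomes, and 947 and 471 for Neurod6. In bulk tissue, more cells that express a gene and more RNA of it per cell cannot be told apart.

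Of the 8 measured members, 4 were higher and 4 lower on the mutant array, and with loess scaling Cdkn1c passed from the lower to the higher side at 0.01. Nnat and Dlk1 were at least 2-fold higher, and Igf2 and Igf2r were at least 2-fold lower. Among the 5587 genes above the filter, the 2-fold mark was passed upward by 5.05% and downward by 5.48%, together 10.5%; the members were picked from this same contrast, so nothing is read from their share. After loess scaling 204 genes were higher and 371 lower by 2-fold, in place of 282 and 306. All 8 members had at least 1 probe set above the filter, and 11 of their 12 probe sets passed. Igf2r passed through its wild type signal alone.

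**Figure D1:**
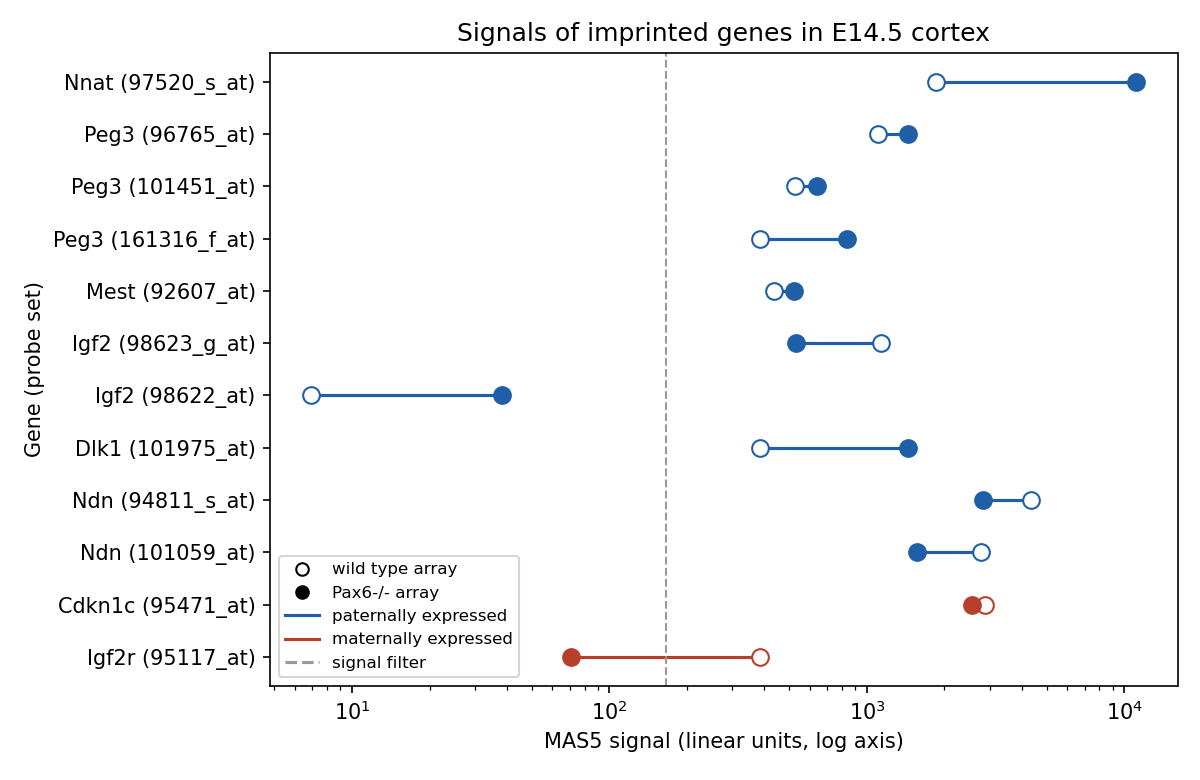
MAS5 signal (log axis) of each of the 12 member probe sets on the wild type array (open circles) and the Pax6-/- array (filled circles), blue for paternally and red for maternally expressed genes, with the signal filter as a dashed line. Nnat runs from 1852 to 11119, while the mutant signal of Igf2r, 70.8, and both signals of the second Igf2 probe set lie left of the filter.

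The paternally expressed members did not move as a group. Among the 6 genes, 4 were higher and 2 lower, with log2 ratios from −1.04 to 2.49 and a median of 0.25, against −0.02 over all genes above the filter. Both measured maternally expressed members were lower, Igf2r at −1.66 and Cdkn1c at −0.21, although Cdkn1c was at 0.01 after loess scaling. Their median of −0.93 is a mean of just these 2 genes, and it was −0.15 with a filter at the 60th percentile, which Igf2r did not pass.

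Nnat encodes neuronatin, a small proteolipid of the endoplasmic reticulum membrane that is made in the developing brain and affects calcium handling. The wild type array read 1852 and the mutant array 11119, which is 5.61-fold apart or 2.49 on the log2 scale, with a technical spread of 0.38 at that level. Both signals lay far above the filter, and the ratio moved little with the pseudocount. It was 2.54 without a pseudocount and 2.39 with the larger one, and between 2.39 and 2.79 over all 8 alternatives that measured it. In order of log2 ratio Nnat stood at place 4 of 5587. Among the 160 genes with a mean log2 signal at or above that of Nnat, it was the only one at least 2-fold higher. The next was Mcm5 at 0.37, and 7 of these genes were at least 2-fold lower. This cut lies at the mean of Nnat itself, which its mutant signal raised, and Nnat was picked from this contrast, so nothing is read from it. Sox2 and Cdca7, below the cut, were also past 2-fold higher, each at 1.06. In the bright class as a whole 2.98% of 1948 genes were 2-fold apart in either direction, against 19.3% in the dim class; 13 bright genes were 2-fold higher, and Nnat was number 3 by ratio among them, after Dlx1 at 4.59 and Dlx2 at 3.99. The value rests on 1 probe set, whose identifier carries a suffix for probes shared between transcripts, and no second probe set checks it.

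The genes most like Nnat on these arrays were still more than 1 log2 unit away from it. By distance in the plane of both log2 signals, the 3 nearest were Sox2 at 1.17, Cdca7 at 1.35 and Txnrd3 at 1.37 log2 units. Sox2, a transcription factor of neural progenitors, went from 2304 to 5042. All 3 were higher in the mutant, by log2 ratios of 1.06, 1.06 and 0.66, well short of Nnat. With 2 arrays this likeness says only that the signals lay near each other.

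**Figure D2:**
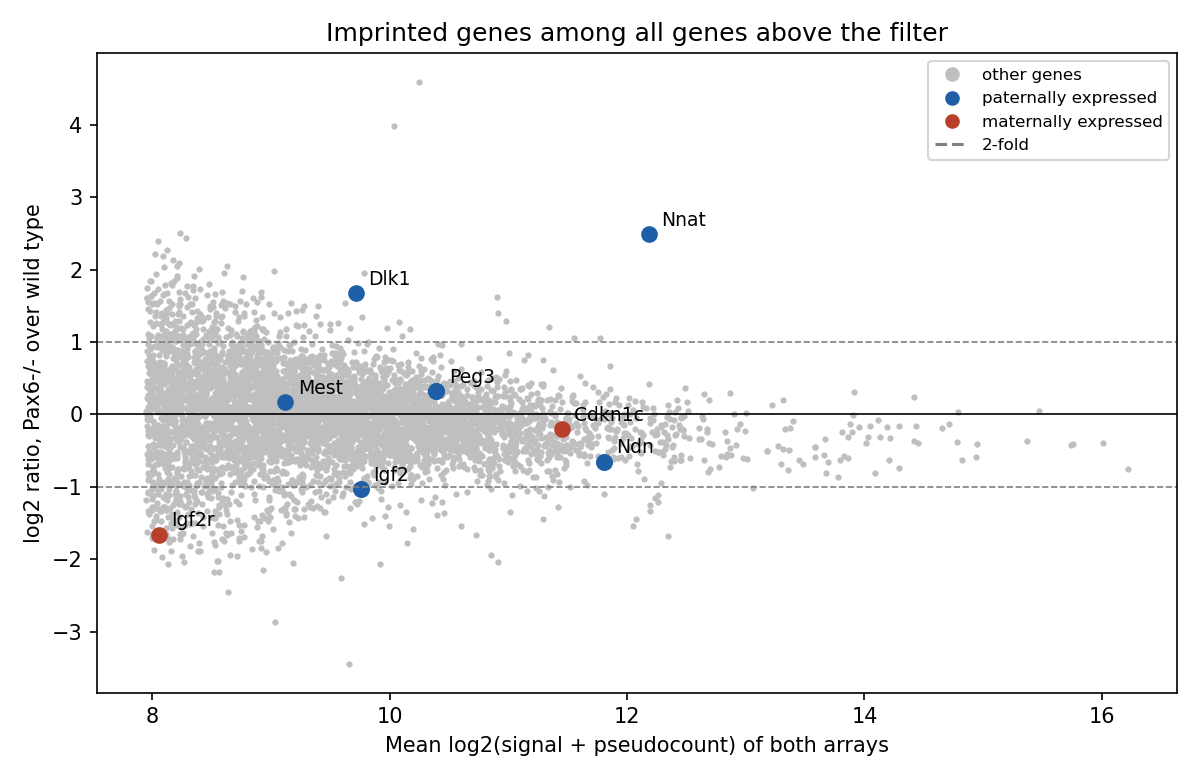
Log2 ratio of Pax6-/- over wild type against the mean log2(signal + pseudocount) for the 5587 genes above the filter (grey) and the 8 members (blue paternally, red maternally expressed); dashed lines mark 2-fold. Nnat, at 2.49, has the highest ratio among genes as bright as it or brighter, a cut placed at its own mean. Igf2r, at −1.66, lies at the dim edge where many genes are 2-fold apart.

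Nnat sits inside the span of Blcap, a gene with a maternally expressed brain transcript, and Blcap did not share its difference. Blcap read 1119 on the wild type and 771 on the mutant array, a log2 ratio of −0.54. The host gene thus lay lower and the nested gene higher on the same arrays. Blcap and the other neighbours named below were chosen for their place in the gene table (GRCm38.p6), within 1000 kb of a member, after their values were seen.

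Dlk1 encodes a transmembrane protein with EGF-like repeats, related to Notch ligands, that holds precursor cells back from differentiating. It read 383 on the wild type and 1444 on the mutant array, which is 3.19-fold apart, a log2 ratio of 1.67 with a technical spread of 0.54, from 1 probe set. Over 9 alternatives the ratio stayed past 2-fold, between 1.37 and 1.87. Only 5.95% of genes in the middle signal class were 2-fold apart.

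Meg3, the maternally expressed noncoding RNA of the Dlk1 domain, was higher as well. Its brighter probe set went from 992 to 3343, a log2 ratio of 1.63, and its second one from 524 to 843, a ratio of 0.56. Both probe sets had the same sign, but only the brighter was past 2-fold, and their mean ratio was 1.10. Genes of opposite parental expression therefore lay on the same side in this domain. Rtl1, Rian, Mirg and Dio3, further genes of the domain, had no probe set with a single symbol.

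Igf2 encodes insulin-like growth factor 2, a fetal growth factor that leptomeninges and choroid plexus make in quantity. Its brighter probe set read 1139 on the wild type and 533 on the mutant array, a log2 ratio of −1.04 with a technical spread of 0.54. This lay at the 2-fold mark and was past it in 5 of 8 alternatives, between −1.15 and −0.86. The second Igf2 probe set, annotated to the same sequence record, gave only 6.96 and 38.1, below the filter on both arrays and higher in the mutant. The difference in Igf2 therefore rests on 1 of 2 probe sets.

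Markers of the cells that make Igf2 did not all lie on its side. Of 12 markers of meninges and mesenchyme, all on the array, 6 passed the filter, 4 of them higher and 2 lower, with a median log2 ratio of 0.35 and summed signals of 5107 (wild type) and 5913 (mutant). Of the 4 higher ones, Col1a1 and Foxc2 passed through the mutant signal alone; among the 4 markers above the filter level on both arrays 2 were higher and 2 lower, with sums of 4847 and 5397. Among the markers that passed, Twist2, a mesenchymal transcription factor, was the only one past 2-fold, from 213 to 791. The brightest, Fbln1, was at −0.40. Its next 2 probe sets also passed, at 0.19 and 0.38, and a dim one was at 0.81. Col3a1, the other lower marker that passed, was at −0.33, from 308 to 239, with dim probe sets at −0.02 and −0.01. Col1a2 was at 0.35, with a dim second probe set at 0.27. Below the filter, Lum (165 to 39.1) was at −1.08, Twist1 (146 to 39.9) at −0.95 and Foxd1 at −0.22. Dcn, Foxc1 and Aldh1a2 were also below it, at 0.12, 0.04 and 0.41. Of 8 markers of choroid plexus 3 passed, 1 higher and 2 lower. Foxj1 was at −0.54 and Ttr, the main secreted protein of that tissue, at −0.16. The third, the water channel gene Aqp1, was at 1.55, from 128 to 555, and passed through the mutant signal alone, while its other probe set was at −0.76. The summed signals of the 3 were 1203 and 1372, and 1075 and 817 without Aqp1. In the lists of meninges and mesenchyme and of choroid plexus, 6 and 2 markers, respectively, lay below the filter. Their part in the Igf2 difference was not tested.

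Igf2r encodes the receptor that carries IGF2 to lysosomes for breakdown and so limits it. It read 385 on the wild type and 70.8 on the mutant array, which is 3.16-fold apart, a log2 ratio of −1.66 with a technical spread of 0.72. The mutant signal lay below both the filter and the pseudocount, so the size of the ratio is set by the pseudocount. It was −2.49 without a pseudocount and −1.0 with the larger one, and it was lower in all 8 alternatives that measured it. In its dim class 19.3% of genes were 2-fold apart.

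The ligand and its clearance receptor were thus both lower on the mutant array, and other genes of the IGF axis lay on both sides. Of 21 further genes of the IGF axis, 15 were on the array and 10 above the filter, 6 of them higher and 4 lower. Of the higher ones, Irs1, Igfbp6 and Igfbp7 passed through the mutant signal alone, which fixed their direction. Among those above the filter level on both arrays, Igf1, Insr and Grb10 were higher, and Igf1r, Igfbp2, Igfbp4 and Igf2bp1 were lower. The median over all 10 was 0.23 and turned to −0.21 with the 60th-percentile filter and −0.06 without shared-probe suffixes. Igf1r, the receptor that transmits IGF2 signals, had signals of 1457 and 1268, a log2 ratio of −0.23. Only Irs1, an adaptor of insulin and IGF receptors, was 2-fold apart, from a wild type signal of 97.2, below the filter, to 308 in the mutant. Insr, the insulin receptor, was at 0.81, Grb10, an imprinted adaptor that dampens these receptors, was at 0.51 with a second probe set at −0.16, and Igf2bp1, a protein that binds Igf2 mRNA, was at −0.95, from 2651 to 1376.

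Ndn encodes necdin, a growth-restraining protein of postmitotic neurons, and it was lower with both of its probe sets. The brighter one read 4329 on the wild type and 2815 on the mutant array, a log2 ratio of −0.65. The second had 2764 and 1559, a ratio of −0.84. Each lay more than the technical spread of 0.38 below 0 and neither reached 2-fold. After loess scaling the brighter one was at −0.41. Its neighbour Magel2, a paternally expressed gene of the same domain, was at −0.63, from 255 to 143, and passed through the wild type signal alone. Mkrn3 was at 0.17, from 153 to 191, and passed through the mutant signal alone. The filter thus fixed both directions, and both ratios lay within the technical spread of 0.72, so no side is read for the domain.

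Peg3 encodes a zinc finger protein that acts on growth, cell survival and maternal behaviour. Its 3 probe sets were all higher in the mutant, with signals of 1101 and 1446, of 524 and 640, and of 384 and 836. Their log2 ratios were 0.32, 0.21 and 0.93. The first 2 lay within their technical spread, and the third, whose identifier marks probes shared by a family of sequences, did not. Its neighbour Usp29 was below the filter, at 27.3 and 176.

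Taken over genes of any ratio, probe sets of 1 gene often differed in sign on these arrays. Where a gene had at least 2 probe sets that passed, the brightest pair shared a sign in 54.1% of 894 genes, hardly more often than it did not. Among the members only Peg3 and Ndn had several that passed, and each gene's probe sets lay on 1 side. The other members, apart from Igf2, rest on 1 probe set each.

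Mest, which encodes an enzyme of the alpha/beta hydrolase fold expressed in embryonic mesoderm and brain, hardly differed. Its signals were 436 and 519, a log2 ratio of 0.17 with a technical spread of 0.54. Cdkn1c encodes p57, an inhibitor of cyclin-dependent kinases that takes progenitors out of the cell cycle. It was bright, at 2875 on the wild type and 2561 on the mutant array, and its log2 ratio of −0.21, within the technical spread of 0.38, moved to 0.01 after loess scaling. Of the 6 non-imprinted inhibitors of cyclin-dependent kinases 3 passed the filter, with Cdkn2c at 0.76, Cdkn2d at −0.14 and Cdkn1a at −0.30. A second Cdkn1a probe set, from 135 to 433, was at 1.20 and passed through the mutant signal alone. Below the filter, Cdkn1b was at −1.47, from 286 to 55.3, with a second probe set at −0.54. Cdkn2a and Cdkn2b were there at 0.05 and 0.69.

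A wider list of 48 genes known to be imprinted in at least 1 tissue, some of them in placenta alone, showed a mixed picture too. Of these, 26 were on the array and 19 above the filter, 12 higher and 7 lower, with a median log2 ratio of 0.20. Only Meg3 was 2-fold higher and only Osbpl5, an oxysterol-binding protein gene, was 2-fold lower, from 861 to 180, a log2 ratio of −1.89. These 2 of 19 genes stand beside 10.5% of all genes. Of 6 further paternally expressed genes above the filter 5 were higher, with a median of 0.46, beside 2702 of all 5587 genes. Peg10 and Mkrn3 passed through the mutant signal alone, and Magel2, the lower one, through the wild type signal alone, which fixed their direction. Sgce, Slc38a4 and Plagl1 were above the filter level on both arrays, and all were higher. Of 11 further maternally expressed genes 6 were higher and 5 lower, with a median of 0.05. Slc38a4, an amino acid transporter gene, was at 0.87. Commd1, which passed through its wild type signal alone, was at −0.74. Plagl1, a zinc finger factor that acts on several imprinted genes including Igf2 and Cdkn1c, was at 0.27 and 0.31 with its 2 probe sets.

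**Figure D3:**
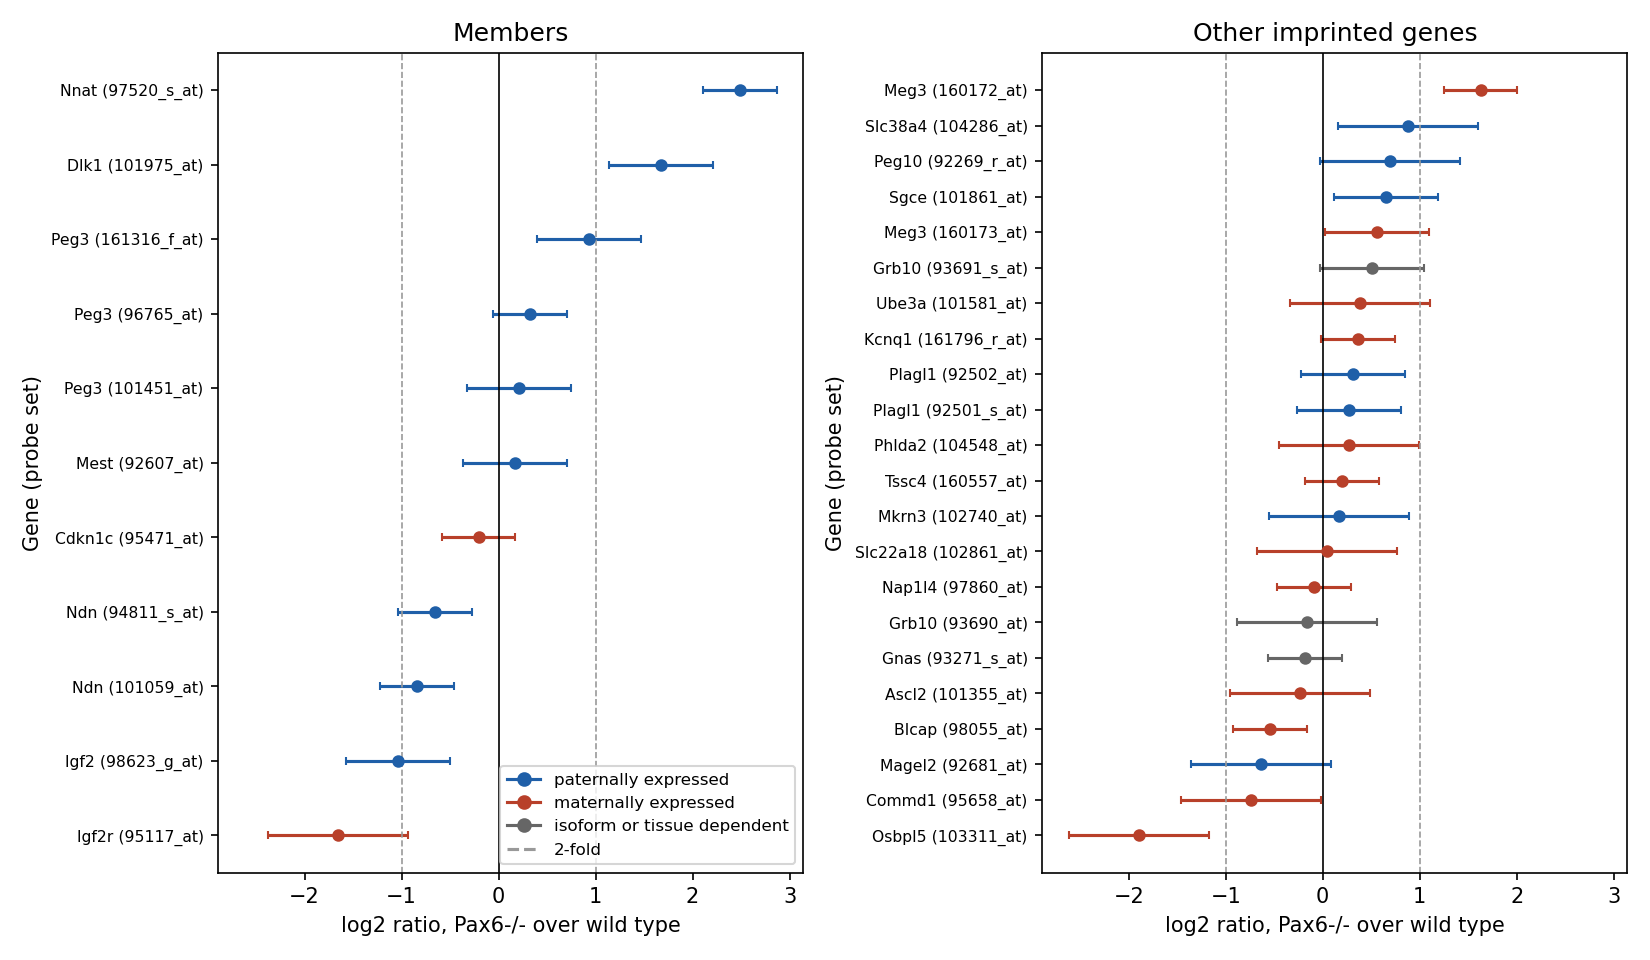
Log2 ratio of Pax6-/- over wild type for each probe set above the filter of the members (left) and of the other imprinted genes (right). Bars are ± 1 technical spread of the signal class, which holds no variation between embryos, RNA preparations or hybridisations. Dashed lines mark 2-fold. Nnat at 2.49 and Dlk1 at 1.67 lead the members, Meg3 at 1.63 and Osbpl5 at −1.89 mark the ends of the wider list.

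Genes of other brain territories differed on the same arrays as Nnat and Dlk1. Of 14 markers of the subpallium, the ventral telencephalon, 6 passed the filter and 5 of these were higher, with summed signals of 1453 (wild type) and 12478 (mutant), led by Dlx1 at 162 and 5982 and Dlx2 at 179 and 4180. Dlx1 and Dlx5 passed through the mutant signal alone, and the other 4 had sums of 1178 and 5796, with 3 higher and 1 lower. The lower one, Lhx6, was at −0.68, from 605 to 362. Below the filter, Meis2 was at −1.23, from 257 to 67.3, while Dlx6, Gad2, Isl1 and Ebf1 were at 0.03, 0.10, 0.23 and 0.17. Of 9 diencephalic and hypothalamic markers 4 passed, Tcf7l2 at 0.11, Otp at 0.61, Lhx9 at 1.12 and Sim1 at 0.35. Lhx9 and Sim1 passed through the mutant signal alone, which fixed their direction; the other 2 had sums of 1172 and 1510. Of 8 markers of hindbrain and midbrain 4 passed. Egr2, from 68.3 to 465, and Hoxb1, from 125 to 372, passed through the mutant signal alone, so their direction was fixed as well. The other 2 were higher, En2 at 0.36 and the hindbrain gene Hoxa2 at 1.08, from 204 to 540, with sums of 549 and 1025. Of 9 vascular markers 4 passed, 2 higher and 2 lower, with summed signals of 1417 and 1610. Eng was at −0.96, Flt1 at 0.78 and Cldn5 at 1.06. Kdr, counted as lower, was at −0.0043 with signals of 308 and 320, and so hardly differed. Of the 14, 9, 8 and 9 markers, 5, 3, 3 and 5 lay below the filter. The part of these cells in the ratios of Nnat and Dlk1 was not tested.

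**Figure D4:**
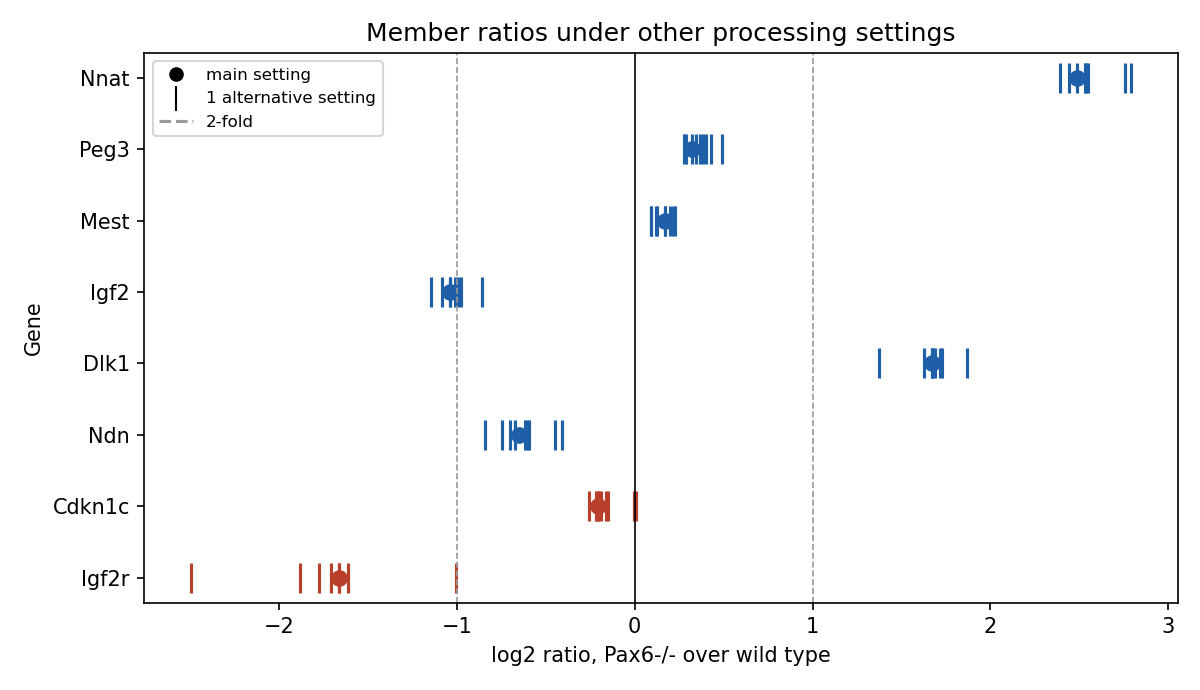
Log2 ratio of Pax6-/- over wild type for each of the 8 members in the main setting (circle) and under each alternative that measured it (ticks); dashed lines mark 2-fold. The ticks of Nnat stay between 2.39 and 2.79, those of Igf2 straddle the 2-fold line, those of Cdkn1c reach 0, and those of Igf2r spread from −2.49 to −1.0.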

How the data were processed

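Per the labels' protocols, biotin-labelled cRNA was made from 6 µg total RNA and hybridised to Affymetrix arrays. The authors deposited 1 linear intensity per probe set and array, made with MAS5 per the submitters' processing notes. Version, scaling target, detection calls and genome build were not given in the sources used here. Trimmed by 2%, the mean signal was 500.2 on both arrays, and the median was 237.3 (wild type) and 283.7 (mutant).

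Of the probe sets, 10855 had 1 symbol in the platform annotation, 396 several and 1237 none; 10839 matched the gene table (GRCm38.p6) by gene ID. The 66 control probe sets were given no gene. The pseudocount is the 25th percentile of all signals, the filter the 40th percentile of mean log2 value, and centring removed a shift of 0.05. Each gene was read from its brightest probe set that passed. The technical spread is the SD of the difference between a gene's 2 brightest probe sets over the square root of 2, in 3 equal classes of 298 genes by signal. No test between genotypes is possible.

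The members and lists were chosen with earlier results of these data known. Named genes are all member probe sets; from each list other than the markers, those past 2-fold and the 4 with the largest ratio; the 3 nearest to Nnat; Pax6; and the 2 brightest markers per list. Neighbours of members, Igf1, Igf1r, Igfbp2, Igfbp4, Igfbp6, Igfbp7, Plagl1, Peg10, Sgce, Mcm5, Cdkn1b, Cdkn2a and Cdkn2b were added after their values were seen. So were the markers Twist2, Aqp1, Col1a1, Foxc2, Dlx5, Lhx9, Sim1, Egr2 and Hoxb1. The markers Lum, Twist1, Foxd1, Dcn, Foxc1, Aldh1a2, Col3a1, Eomes, Neurod6, Cldn5 and Kdr were added in the same way. Lhx6, Meis2, Dlx6, Gad2, Isl1 and Ebf1 were too. The ratio steps were tested on simulated arrays. Other settings were: ratios not centred; quantile scaling; loess scaling (fraction 0.4, 3 iterations); signals floored at the 1st percentile without a pseudocount; a pseudocount at the 50th percentile; the filter dropped or raised to the 60th percentile; averaged probe sets; shared-probe suffixes left out; and thresholds of 1.5-fold and 3-fold. Python 3.11.15, numpy 2.4.6, pandas 2.3.3, statsmodels 0.14.6 and matplotlib 3.10.9 were used.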

Additional observations from a re-analysis of the deposited data

How the results depend on the processing

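Nnat, Dlk1, Igf2r, Peg3, Mest, Igf2 and Ndn kept their direction under all alternatives that measured them, and Cdkn1c under 8 of 9. The median of the maternally expressed members was −1.35 without a pseudocount and −0.15 with the 60th-percentile filter, which leaves Cdkn1c alone; Igf2r was absent there. The median of the paternally expressed members ran from 0.20 to 0.33. Nnat and Igf2 gave no value without shared-probe suffixes. Of 97 recomputed values of single genes and wider lists, 91 moved by less than their limit and 6 by more. The limit was the technical spread for a single gene, and for a list the spread over all signals, 0.56, divided by the square root of the number of genes. Counts of 2-fold genes moved most: dropping the pseudocount gave 447 higher genes. A pseudocount at the 50th percentile left 90 higher and 128 lower genes, no filter gave 498 and 526, and the 60th-percentile filter 97 and 114. The 1.5-fold mark gave 785 and 844, and that of 3-fold 58 and 68. Higher genes made up 48.0% of 2-fold genes, against 38.2% after quantile and 35.5% after loess scaling. No paired analysis was possible because each genotype has 1 array.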
